A study of Homo sapiens with 4 samples.

Results

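The baseline difference between H1299 and A549 cells was read from 2 of the 4 arrays of the series, 1 array of H1299 and 1 of A549, both from cells given a scramble siRNA. The scramble siRNA is a short double-stranded RNA meant to match no gene, so these arrays show the lines without a knockdown. For each gene, the probe set that names this gene alone and had the highest mean signal on these arrays was taken. Of the 19775 genes with such a probe set, 12780 had a mean signal of at least 77.3 and were measured; the other 6995 were below this minimum, which was the median over all probe sets of the array.

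The other 2 arrays held the same lines after an siRNA against hMOF, the histone H4 acetyltransferase encoded by KAT8. All cells were grown in the same medium with serum and transfected with the same lipid reagent. Each combination of line and siRNA has 1 array, and the siRNA sequences, the time between transfection and harvest, and how many cultures an array stands for are not stated in the labels used here. On the A549 scramble and the H1299 hMOF siRNA arrays the treatment tag gives the opposite siRNA, whereas source names and titles of all 4 arrays go together, and the groups follow these. KAT8 had signals of 402 in A549 and 241 in H1299 under scramble siRNA, and of 106 and 61.8 under hMOF siRNA, so that in both lines the array named scramble was the higher.

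Both lines come from non-small cell lung cancers, and each is 1 cell line. A549 grows as an epithelial adenocarcinoma line and is known to carry mutant KEAP1 and STK11 and to lack the CDKN2A locus. H1299 is a large cell carcinoma line, known to carry mutant NRAS and to make no p53. KEAP1 normally marks the transcription factor NRF2 for degradation, and NRF2 switches on genes for reductases, glutathione synthesis and the pentose phosphate pathway.

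Values are MAS5 signals, a linear brightness per probe set. Ratios are given as log2 differences, H1299 minus A549, after 29.06 was added to each signal. This offset is the 20th percentile of all signals, so signals below it have no order and the log2 values understate ratios of dim genes. With 1 array a side there is no test within the scramble pair, and genes were counted by a size of at least 2-fold. A gene can pass the minimum through 1 line alone and then has to differ, so the counts and medians of gene lists below cover only the members measured and do not stand for whole lists. The hMOF siRNA pair shares no array with the scramble pair and is the only other measurement of the same line difference here. A limma fit of the line difference over both pairs, with the siRNA as a block, has 1 residual degree of freedom, and its p-values measure the spread between the pairs, which may be technical.

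The arrays had median signals of 73.3 to 75.4. The ratio of 3' to 5' probe sets was 1.18 in A549 and 1.10 in H1299 for GAPDH, and 3.11 and 2.89 for ACTB. Most markers of other cell types lay low: of 16 blood markers 4 were measured, and of 11 endothelial markers 6, with signals of 30.4 to 391 over both lists on the scramble arrays. Their part in any result was not tested.

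H1299 and A549 differed at least 2-fold at 2606 of the 12780 genes, or 20.4%. The side with more genes was A549: 1168 genes (9.14%) were higher in H1299 and 1438 (11.3%) were lower. These shares of all genes are the ones to set beside the 2-fold counts of gene lists below. At 4-fold the counts were 322 higher (2.52%) and 600 lower (4.69%). The median log2 ratio of all genes was -0.04 and the middle 50% of genes lay between -0.47 and 0.38. Highly expressed genes differed less often, with 12.7% of the genes over a mean signal of 3000 past 2-fold against 23.8% of those between 300 and 3000.

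Most of these differences were found again in the hMOF siRNA pair. Of the genes higher in H1299, 927 (79.4%) were at least 2-fold higher there too and 98.6% had the same sign. Of the genes lower in H1299, 1266 (88.0%) were at least 2-fold lower there too and 99.9% had the same sign. As shares of all genes these repeated differences are 7.25% and 9.91%. In limma, 3182 genes (24.9%) were higher and 3463 (27.1%) lower in H1299 at a Benjamini-Hochberg adjusted p under 0.05, together 52% of all genes. Other scalings turned the side with more limma calls: quantile normalization gave 3499 genes higher in H1299 against 3317 lower, and centring each array on its median gave 3338 against 3303. The calls included 96.8% of the genes 2-fold higher and 99.3% of those 2-fold lower in the scramble pair. That pair is part of the limma fit, so this overlap is no separate support. Probe sets of one gene did not always show the same difference: of the 525 genes that were 2-fold higher and had more than 1 probe set above the minimum, all of these probe sets were on the same side for 83.8% and past 2-fold for 42.3%. For the 697 lower genes the shares were 85.8% and 46.5%.

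**Figure D1:**
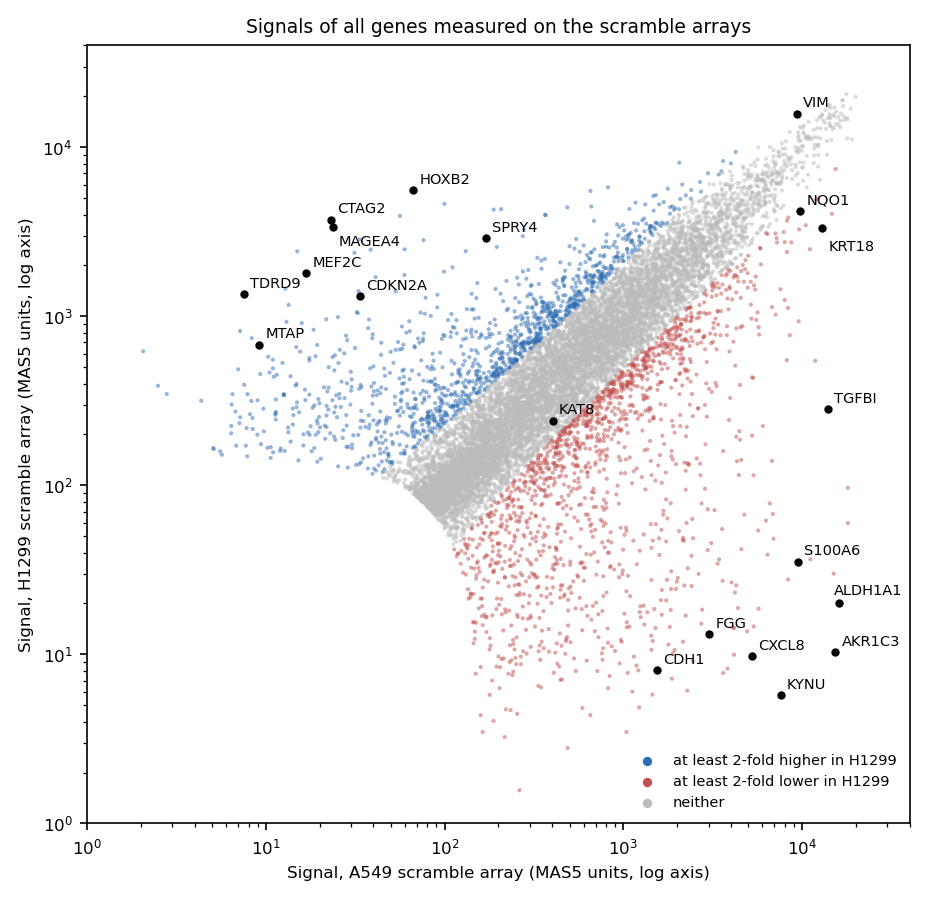
Signal of each of the 12780 genes on the A549 scramble array (x axis) and the H1299 scramble array (y axis), both in MAS5 units on log axes, 1 point a gene. Blue points are at least 2-fold higher in H1299 (1168 genes) and red points at least 2-fold lower (1438 genes). AKR1C3, ALDH1A1 and KYNU lie far below the diagonal, HOXB2, CTAG2 and MAGEA4 far above it, and VIM lies close to it at high signal.

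The largest differences were near on or off. There were 70 genes with a signal of at least 1000 in A549 and no more than the offset in H1299, and 7 the other way. Of the 70 genes, 66 were again at or under the offset in H1299 and 59 again at or over 1000 in A549 under hMOF siRNA. ALDH1A1, AKR1C3, CA12, KYNU, CYP24A1, UBE2E1, CXCL8, CXCL5, AGR2 and GPX2 had the highest A549 signals of the 70. The 7 genes of the other direction were CTAG2, MAGEA4, GTSF1, MEF2C, MAGEA1, TDRD9 and SATB1, of which all 7 were again off in A549 and 5 again on in H1299 under hMOF siRNA.

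**Figure D2:**
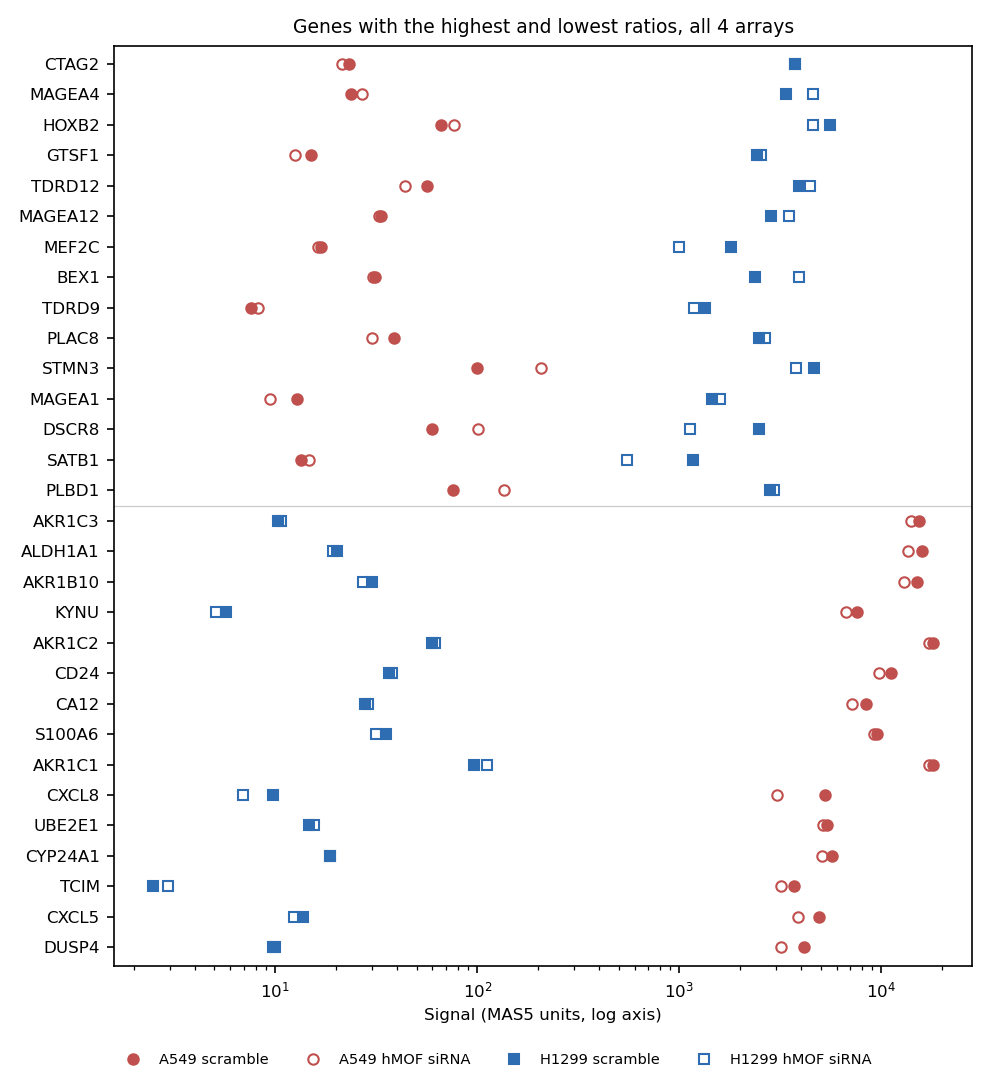
Signals in MAS5 units (x axis, log scale) of the 15 genes with the highest ratio (above the line) and the 15 with the lowest ratio (below it) of H1299 to A549, among genes at least 2-fold the same way in both pairs. Each gene has 4 points, 1 for each array, with circles for A549, squares for H1299, filled for scramble and open for hMOF siRNA. For each gene the A549 and H1299 points stand apart, from CTAG2 at 23.3 and 3728 to DUSP4 at 4159 and 9.95 under scramble siRNA.

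Genes for detoxification of aldehydes and ketones led the list of genes lower in H1299. Aldo-keto reductases use NADPH to reduce steroids, prostaglandins and reactive carbonyls. AKR1C3, which acts on steroids and prostaglandins, had signals of 15314 in A549 and 10.4 in H1299 under scramble siRNA and of 14098 and 10.7 under hMOF siRNA. Its log2 difference was -8.60 in the scramble pair, the lowest of all genes, and -8.47 in the hMOF siRNA pair. In RNA of a whole culture, fewer expressing cells and less RNA in each cell cannot be told apart. AKR1B10, a reductase of retinal and lipid aldehydes, was at 15008 in A549 and 30.0 in H1299. AKR1C1 and AKR1C2 had differences of -7.17 and -7.67, but they are near-identical genes whose probe sets can read each other's RNA. Of the 7 family members measured, these 4 were at least 2-fold lower and none was higher. Their median of -7.17 was -1.63 over 9 members with no signal minimum and -4.12 without probe sets that can bind related sequences. AKR1E2 differed by -0.76, AKR7A2 by 0.35 and AKR7A3 by 0.19. For AKR1C3, the mean difference over both pairs in limma was -8.54 with a standard error of 0.11 (adjusted p = 5.70e-05).

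Some aldehyde dehydrogenases were far lower in H1299, some moderately lower and others within 2-fold. ALDH1A1, which makes retinoic acid from retinal, was at 15981 in A549 and 20.1 in H1299 under scramble siRNA and at 13487 and 19.3 under hMOF siRNA. ALDH3A1 was at 3588 and 27.3, and ALDH2, the mitochondrial enzyme that clears acetaldehyde, at 4567 and 141 under scramble siRNA. Of 16 members measured, 5 were at least 2-fold lower, none was higher and the median was -0.10; it was -0.94 over the 12 members above the 70th percentile of signal and -0.29 in the hMOF siRNA pair. ALDH18A1, ALDH1B1 and ALDH3A2 lay in between, at -1.18, -0.96 and -0.93, and passed in limma. ALDH9A1 and ALDH7A1 had differences of 0.09 and -0.06.

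Most NRF2 target genes measured were lower in H1299. Of 30 measured, 18 were at least 2-fold lower and 1 was higher, with a median log2 difference of -1.21 against -0.04 over all genes. In limma 22 were lower, 2 higher and 6 did not pass, where 27.1% of all genes were lower and 24.9% higher. The list was chosen with results of these arrays known and its count is a description.

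The exporters ABCC3 and ABCC2, which pump conjugated compounds out of cells, had signals of 6278 and 1081 in A549 and of 61.8 and 14.6 in H1299. GPX2, a glutathione peroxidase, was at 4278 and 25.6, and SLC7A11, the cystine importer that feeds glutathione synthesis, at 3616 and 159. The enzymes that make NADPH were lower as well, with log2 differences of -3.81 for ME1 and -2.30 for PGD. TKT and TALDO1 differed by -1.66 and -1.31; they act in the non-oxidative arm of the pentose phosphate pathway and yield no NADPH themselves. NQO1, the quinone reductase often used to read NRF2 activity, stayed high in both lines, at 9772 in A549 and 4219 in H1299 under scramble siRNA and at 8670 and 3241 under hMOF siRNA. GCLC and GCLM, the subunits of the enzyme that starts glutathione synthesis, had differences of -1.51 and -1.01, and GCLM missed 2-fold in the hMOF siRNA pair at -0.42. HMOX1, SQSTM1, PRDX1 and TXNRD1 had differences of -0.24, -0.10, -0.18 and -0.43 and did not pass in limma. OSGIN1 was the only member at least 2-fold higher, at 1.52, and was not so in the hMOF siRNA pair. NFE2L2, the gene of NRF2, had a difference of -0.06 and KEAP1 one of 0.13, and neither passed in limma (adjusted p = 0.272 and 0.264).

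The antioxidant response element, searched as TGACNNNGC on either strand in the 250 bases before each start in RefSeq GRCh38.p14, was present in 10.9% of all 35116 promoters. Counted by gene, it was present in 5 of 13 lower NRF2 targets with a promoter in that set, in 7 of all 21 measured NRF2 targets with one (33.3%), in 15.97% of measured genes and in 13.2% of all genes. The 5 lower genes were EPHX1, GCLM, GPX2, ME1 and PGD. Both sites below are shown because these genes had the lowest ratios among the 5, with the matched letters in capitals and read along the strand of the gene.
GPX2, chr14:64942834-64942892, minus strand: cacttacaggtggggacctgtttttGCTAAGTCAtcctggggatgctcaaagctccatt
ME1, chr6:83431155-83431213, minus strand: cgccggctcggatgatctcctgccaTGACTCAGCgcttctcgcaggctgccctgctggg
The match in ME1 lies on the strand of the gene and also holds TGACTCA, the AP-1 motif, and the match in GPX2 lies on the opposite strand. The letters were chosen after the values were seen, and a match is a description of the sequence. None of the 3 lower aldo-keto reductases with a promoter there held these letters in the window.

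Other conjugating enzymes followed no single direction. MGST1, a membrane glutathione transferase, was at 11834 in A549 and 546 in H1299, and MGST2 at 1763 and 63.7. GSTP1 differed by -1.29, whereas GSTM3 differed by 1.31 and UGT8, a ceramide galactosyltransferase, by 3.15. Of 16 measured, 2 were higher and 3 lower, each in both pairs, against 9.14% and 11.3% of all genes in the scramble pair.

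Many epithelial genes were lower in H1299. CDH1, which encodes the adhesion protein E-cadherin, had signals of 1535 in A549 and 8.04 in H1299 under scramble siRNA and of 1562 and 7.61 under hMOF siRNA, a log2 difference of -5.40. A second CDH1 probe set was dim on both arrays, at 95.1 and 73.3, and differed by -0.28. Of 28 epithelial genes measured, 13 were at least 2-fold lower, all of them in both pairs, and 1 was higher. The median of -0.92 was -0.44 over 35 genes with no signal minimum and -2.96 over the 18 above the 70th percentile of signal.

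The keratins of simple epithelia, which form the intermediate filaments of these cells, were lower in H1299. KRT7 was at 6775 in A549 and 139 in H1299, KRT8 at 6024 and 224, KRT19 at 1246 and 19.2 and KRT18 at 12920 and 3320. For KRT7, only 1 of its 2 probe sets above the minimum was past 2-fold. KRT15, a keratin of basal cells, went the other way, at 68.4 and 325. The protease inhibitor SPINT2 differed by -5.64, the tight junction protein CLDN2 by -5.49, the junction proteins JUP and DSP by -4.29 and -3.75 and the surface protein EPCAM by -2.37. Tight junction genes TJP1 and OCLN differed less, by -0.72 and 0.35.

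Mesenchymal genes were not higher as a group in H1299. VIM, the intermediate filament of mesenchymal cells, was high in both lines, at 9367 in A549 and 15787 in H1299 under scramble siRNA and at 11327 and 15594 under hMOF siRNA, a difference of 0.75. Of 24 measured, 4 were at least 2-fold higher and 10 were lower. The median was -0.48, with -0.08 over 31 genes with no signal minimum and -0.80 in the hMOF siRNA pair. The matrix genes TGFBI and SPARC differed by -5.48 and -3.12, fibronectin (FN1) by -2.14 and N-cadherin (CDH2), whose gain often accompanies loss of E-cadherin, by -1.86. TWIST1, a transcription factor of epithelial-mesenchymal transition, was higher at 170 in A549 and 745 in H1299, and so were the surface enzyme NT5E by 1.48 and the receptor AXL by 1.15, whose hMOF siRNA value was 0.66. ZEB1, a repressor of CDH1, differed by 0.64 and 0.92 in the pairs and passed in limma, and SNAI2, another such repressor, by -2.10.

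Most collagen genes measured were lower in H1299. Of 18 collagen chains measured, 14 were at least 2-fold lower in H1299, each in both pairs, and 1 was higher. The median was -2.74, and -1.46 over 24 chains with no signal minimum. COL5A2 was at 4205 in A549 and 23.2 in H1299 under scramble siRNA and at 7596 and 61.1 under hMOF siRNA. COL4A1 and COL4A2, the main chains of basement membrane collagen, were at 1234 and 2757 in A549 and at 41.0 and 18.4 in H1299. The exception was COL13A1, a transmembrane collagen, at 11.4 and 322, though only 1 of its 3 probe sets above the minimum was past 2-fold. Of 13 measured genes of laminins and other basement membrane proteins, 5 were at least 2-fold lower and NID2 was higher by 1.10. The lower ones were the laminin chains LAMA5 (-2.40), LAMB1 (-1.87) and LAMC1 (-1.11), and AGRN and EFEMP1, while LAMA2, LAMA4, LAMB2 and LAMB3 lay within 2-fold. Integrins, the receptors for these proteins, had no common direction: ITGA4 and ITGA10 were higher by 3.25 and 2.90 and ITGA6 was at 1476 and 4215, whereas ITGB4 differed by -1.80 and ITGB1, the shared beta chain, by -0.52.

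S100 and annexin genes, which encode calcium-binding proteins, were lower at 11 of 20 and higher at 2, against 11.3% and 9.14% of all genes. S100A6 had signals of 9472 in A549 and 35.4 in H1299, and S100A4 had 8202 and 550. ANXA2 and S100A10, which form one complex, were high in both lines, at 18995 and 12310 in A549 and at 11103 and 8991 in H1299.

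Many genes of liver-type secreted proteins, which include clotting factors and complement, were expressed in A549 and low in H1299. Of 30 measured, 17 were at least 2-fold lower, all of them in both pairs, and 4 were higher. The median of -2.33 was -0.64 over 38 genes with no signal minimum and -3.82 over the 21 above the 70th percentile of signal. The 3 fibrinogen chains FGA, FGB and FGG were at 997, 2194 and 3012 in A549 and at 41.6, 25.5 and 13.2 in H1299. Complement genes C3, C1S, C1R and CFB had differences of -5.00, -5.50, -4.78 and -3.82, and TFPI, the inhibitor of the tissue factor pathway, one of -5.74. The protease inhibitor SERPINA1 (2.11), APOE (1.36) and the plasminogen activators PLAU (1.52) and PLAT (1.33) were higher in H1299, with PLAU at 0.39 and APOE at 0.77 in the hMOF siRNA pair.

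Signals read for surfactant genes were close in both lines, while some other lung lineage genes differed. SFTPB, a surfactant protein of alveolar cells, was at 798 in A549 and 760 in H1299, by a probe set that can bind related sequences. SFTPC was at 112 and 113 and NAPSA at 83.6 and 85.3, not far above the signal minimum. These values do not show whether either line expresses SFTPB, SFTPC or NAPSA. NKX2-1, the master regulator of lung epithelium, was below the signal minimum. The pioneer factor FOXA2 was at 1237 and 17.8 and the surface protein CEACAM6 at 1754 and 27.6, while GATA6 (2.08) and LAMP3 (2.65) were higher in H1299. Of 14 measured, 2 were higher and 6 lower. Set against the markers of an epithelial lung line, the A549 array was high for KRT7, KRT8, KRT18, KRT19 and CDH1, the H1299 array was low for KRT7, KRT8, KRT19 and CDH1 but not for KRT18, and neither showed NKX2-1 above the minimum.

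Most cytokine and chemokine genes measured were lower in H1299. Of 22 measured, 14 were at least 2-fold lower and 2 were higher, with a median of -1.44 (-0.79 over 29 genes with no signal minimum), and in limma 16 were lower and 3 higher. CXCL8, the neutrophil attractant interleukin-8, was at 5250 in A549 and 9.72 in H1299 under scramble siRNA and at 3037 and 6.95 under hMOF siRNA. Its relatives, which act on the same receptors, differed too: CXCL5 by -6.86, CXCL1 by -4.88, CXCL2 by -3.91 and CXCL3 by -2.86, although some of these probe sets can read more than one of them. PTGS2, the inducible prostaglandin synthase, was at 1870 and 7.18, IL18 at 1249 and 16.6 and IL6 at 308 and 30.2. ICAM1, an adhesion molecule for leukocytes, and PTX3 were the 2 higher genes, at 61.7 and 366 and at 47.0 and 371. The NF-kB subunit genes NFKB1 and NFKB2 differed by 0.14 and 0.15 and the inhibitor gene NFKBIA by -0.79.

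The 5 chemokine genes follow each other among the measured genes of chromosome 4 and all hold the letters of the kappa B element, the site bound by NF-kB, in the 250 bases before their start. The letters GGAATTTCC, searched on either strand, were found in all 5, in 145 of 35116 promoters (0.413%) and in 137 of 27305 genes (0.502%); 10 of 24 genes of the cytokine list with a promoter there held them. The sequences around the match are shown because these genes formed one of the longest rows of neighbours lower in H1299, and ICAM1, on another chromosome and higher in H1299, is shown for contrast. Capitals mark the match, and all are RefSeq GRCh38.p14 sequence along the strand of the gene.
CXCL8, chr4:73740453-73740511, plus strand: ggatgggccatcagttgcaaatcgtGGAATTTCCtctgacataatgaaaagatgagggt
CXCL1, chr4:73869290-73869348, plus strand: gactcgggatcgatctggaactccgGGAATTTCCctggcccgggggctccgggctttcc
CXCL5, chr4:73998734-73998792, minus strand: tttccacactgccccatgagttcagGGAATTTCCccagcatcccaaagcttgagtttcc
CXCL3, chr4:74038734-74038792, minus strand: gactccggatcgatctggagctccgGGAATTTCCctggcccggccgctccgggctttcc
CXCL2, chr4:74099239-74099297, minus strand: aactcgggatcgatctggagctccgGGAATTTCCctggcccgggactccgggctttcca
ICAM1, chr19:10270909-10270967, plus strand: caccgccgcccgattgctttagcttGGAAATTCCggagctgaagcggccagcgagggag
CXCL1, CXCL2 and CXCL3 share most letters around the match, so their matches are not separate observations. The match in ICAM1 lies on the opposite strand. NFKB1 and NFKBIA hold the letters as well. The letters were chosen after the values were seen, and a match is a description of the sequence.

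Interferon-stimulated genes, which cells express in response to viral RNA and interferon, were lower at 12 of 32 and higher at 1. Of all genes 11.3% were lower and 9.14% higher. The median of the list was -0.69, and -0.45 in the hMOF siRNA pair. MX1 was at 321 in A549 and 14.6 in H1299 under scramble siRNA, and its difference was -1.62 under hMOF siRNA. IFITM1 differed by -3.25, OAS1 by -2.68 and IFIT1 by -1.53, and IFIT1 by -0.56 in the hMOF siRNA pair. Only 8 of the 12 were at least 2-fold lower in both pairs. IFIH1, a sensor of double-stranded RNA, was higher by 1.16. Some genes of antigen presentation went the opposite way: of 17 measured 4 were at least 2-fold higher, 3 of them in both pairs, and none was lower. TAP2, a peptide transporter, was at 248 and 980, and HLA-B at 1508 and 3273, although HLA probe sets can read more than one class I gene. In limma 9 of the 17 were higher and 3 lower, where 24.9% of all genes were higher and 27.1% lower. The 3 lower genes were B2M (-0.42 in the scramble pair), PSMB8 (-0.87) and PSME1 (-0.57).

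Several cancer-testis genes, normally expressed in germ cells, were near off in A549 and high in H1299. Of 12 measured, 7 were at least 2-fold higher in H1299, each in both pairs, and none was lower. The median of 3.15 rests on few genes and on probe sets that can bind related sequences, and was 0.17 with no signal minimum and 0.22 without such probe sets. MAGEA4 was at 23.7 in A549 and 3368 in H1299 under scramble siRNA and at 26.9 and 4579 under hMOF siRNA. MAGEA1 was at 12.9 and 1455 and MAGEA12 at 33.4 and 2843, while MAGEA6 was already at 821 in A549 and reached 5793. CTAG2 had the highest ratio of all genes, 6.17, but rests on a probe set that can bind related sequences: its other probe set was at 71.6 and 88.0, a difference of 0.22 (adjusted p = 0.418 in limma). PRAME and MAGED1 were expressed in both lines, at 1778 and 3570 in A549 and at 2327 and 2230 in H1299. MAGE genes are alike in sequence and can share signal. TDRD12, TDRD9 and GTSF1 act with the piRNAs that silence transposons in the germ line and were singled out after their values were seen. Their log2 differences were 5.54, 5.23 and 5.80 in the scramble pair and 5.93, 5.02 and 5.95 in the hMOF siRNA pair. Of 3 TDRD genes measured, 2 were at least 2-fold higher, each in both pairs, and the lowest differed by -0.27 in the scramble pair.

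The genes of the CDKN2A locus were far higher in H1299. CDKN2A, which encodes the cell cycle inhibitor p16 and the p53 stabiliser ARF, had signals of 33.5 in A549 and 1317 in H1299 under scramble siRNA and of 46.5 and 1176 under hMOF siRNA. Its neighbours MTAP, a methionine salvage enzyme, and CDKN2B, the inhibitor p15, were at 9.19 and 10.3 in A549 and at 680 and 576 in H1299. Of the 3 CDKN2A probe sets, 2 showed the difference and the third was dim in both, at 83.6 and 88.6. For MTAP, 3 of 4 probe sets above the minimum were higher in H1299, and the other was at 249 in A549 and 101 in H1299. Other genes of the RB pathway differed less: RB1 by 0.73, CDK6 by 0.95, CDK4 by -0.36, CCNE1 by -1.39 and CCNE2 by 1.10.

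Most p53 target genes lay within 2-fold in the scramble pair. Of 27 measured, 6 were at least 2-fold lower in H1299, 1 was higher and the median was -0.22, and in the hMOF siRNA pair the median was -0.65. All 6 lower genes, but not the higher one, were past 2-fold in both pairs. In limma 13 were lower and 3 higher, where 27.1% of all genes were lower and 24.9% higher. PHLDA3 and GDF15 differed by -3.02 and -3.08, TP53I3 by -1.67 and DDB2, a DNA damage sensor, by -1.17. CDKN1A, the inhibitor p21 and the best known p53 target, was alike under scramble siRNA, at 1606 in A549 and 1707 in H1299, and at 1594 and 731 under hMOF siRNA, and its difference did not pass in limma (adjusted p = 0.217). MDM2 differed by -0.22, BAX by -0.43 and GADD45A, which other pathways also induce, by 1.81.

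Feedback genes of RAS and MAPK signalling were higher in H1299 at 8 of 21 and lower at 1, against 9.14% and 11.3% of all genes. All 9 were past 2-fold in both pairs. Of all genes 2-fold higher in the scramble pair 79.4% were so in both pairs, and of those lower 88.0%. The inhibitor SPRY4 was at 169 in A549 and 2898 in H1299 under scramble siRNA and at 118 and 2133 under hMOF siRNA. FOSL1, a transcription factor downstream of ERK, was at 91.2 and 1341, SPRY2 at 255 and 1692 and DUSP6, the phosphatase that switches off ERK, at 801 and 2774. DUSP4, a related phosphatase, was the exception with 4159 and 9.95, and all 3 of its probe sets showed it. The median of the list was 0.39.

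Receptors and their ligands shifted in both directions. The ligands TGFA and HBEGF of the EGF receptor were higher, by 2.62 and 1.92, and EREG was lower, at 1041 in A549 and 3.47 in H1299. For EREG, only 1 of its 2 probe sets above the minimum was past 2-fold. EGFR itself was at 1888 and 729, MET at 4787 and 1899 and IGF1R at 2243 and 484. In the TGF-beta and BMP list 9 of 30 were lower and 4 higher, against 11.3% and 9.14% of all genes. The receptors TGFBR1 and TGFBR2 differed by -2.98 and -2.11 and the inhibitor SMAD6 by -3.49, whereas the BMP antagonist NOG was at 41.1 and 1704. In the WNT list 10 of 25 were lower and 4 higher, to be set against the same shares of all genes. WNT5A was at 488 and 2.79. The WNT feedback genes AXIN2, RNF43 and ZNRF3 differed by -2.03, -2.80 and -2.82, and WNT5B by 2.83. SFRP4 was higher by 1.95 only under scramble siRNA, with -0.29 in the hMOF siRNA pair.

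Hypoxia and glycolysis genes also diverged within the list. CA12, a carbonic anhydrase, was at 8353 in A549 and 27.7 in H1299, and NDRG1 differed by -3.98. PFKFB3 and PFKFB4, isozymes that set the level of a glycolytic activator, went opposite ways at -2.84 and 1.42, and HK2, the inducible hexokinase, was at 142 and 1097. The core enzymes ALDOA, TPI1, PGK1, ENO1 and LDHA lay between -0.17 and 0.16.

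Neuronal genes were split as well, and the median of this list (-0.06) changed sign under 2 of its alternatives. The adhesion genes NRCAM and CNTN1 and the receptor NTRK3 differed by -4.73, -4.23 and -4.04, and the peptide gene NTS by -4.37. INA, KIF5C, SCG2 and NEFH were higher by 2.08, 2.20, 2.43 and 2.97, with NEFH, a neurofilament, at 263 and 1393 in the H1299 scramble and hMOF siRNA arrays. UCHL1, a ubiquitin hydrolase of neurons, was at 7391 and 7105.

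The HOX clusters, which pattern the body axis, held members that were higher, lower and within 2-fold in H1299. The HOXA cluster was not assessed, since 10 of its 11 genes had no probe set of their own and HOXA2 was below the minimum. HOXB2 was at 66.4 in A549 and 5586 in H1299 under scramble siRNA and at 77.1 and 4581 under hMOF siRNA. HOXB4, HOXB3 and HOXB7 were higher by 2.87, 1.91 and 1.29, HOXB8 differed by -1.87 and HOXB5 was at 246 and 245. HOXC10 and HOXC6 were higher by 1.34 and 1.05, and HOXD10 and HOXD11 differed by -3.13 and -1.86. The median of the HOXB list, 0.33, and that of the HOXD list, -0.78, each changed sign under 1 alternative, and that of the HOXC list, 0.07, under 2.

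**Figure D3:**
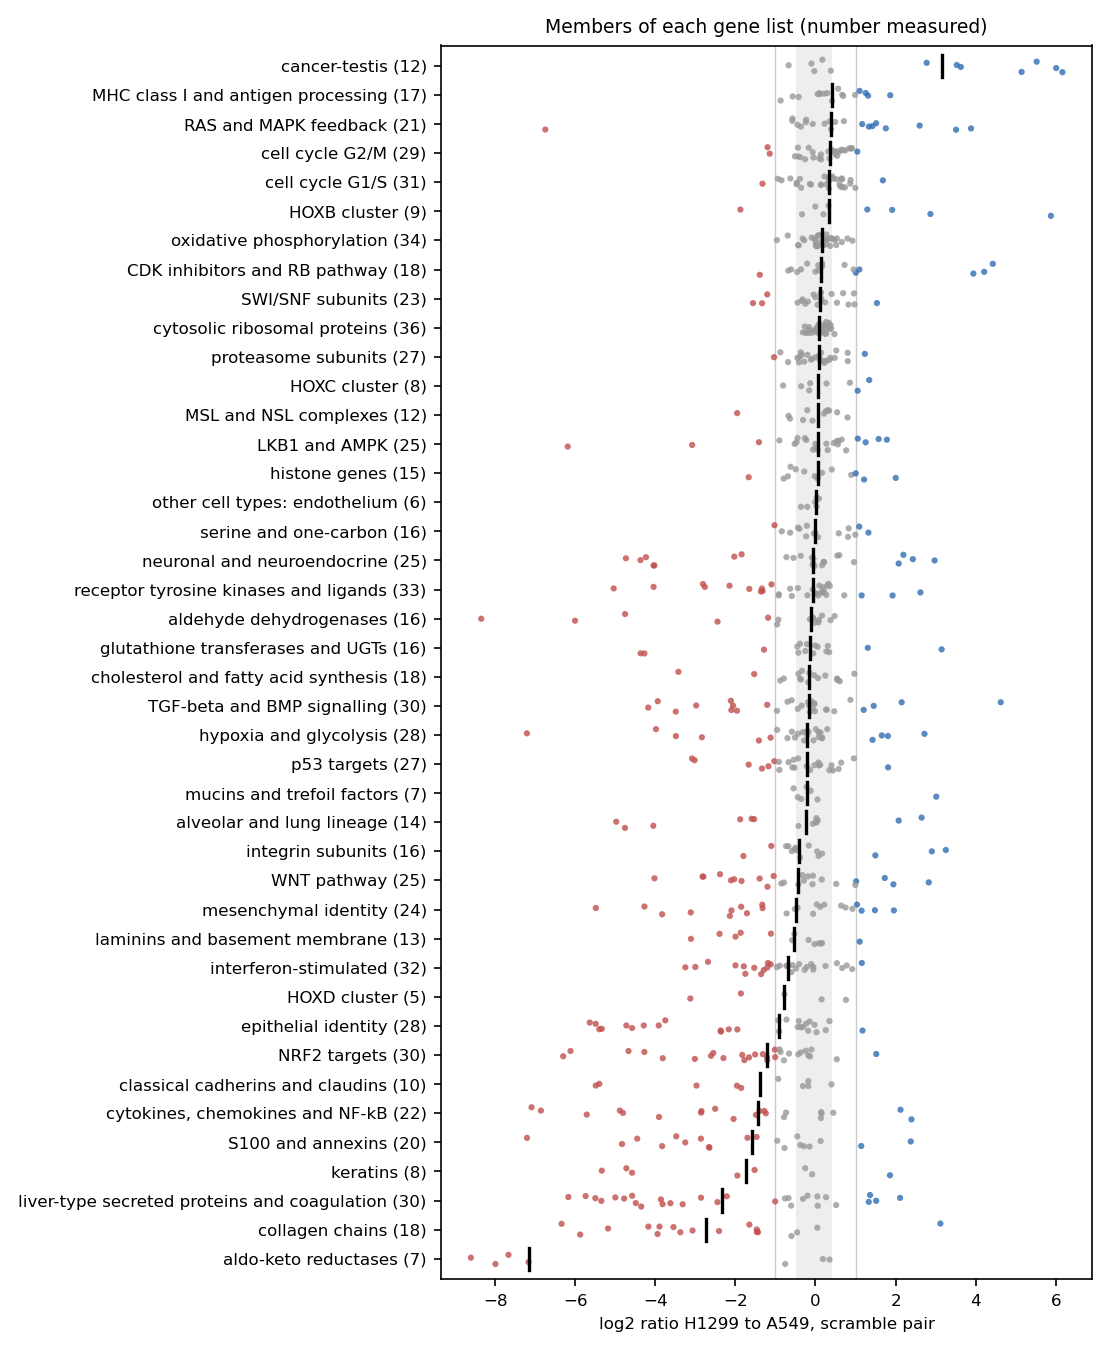
Log2 ratio of H1299 to A549 in the scramble pair (x axis) for each measured gene of the lists with at least 5 measured genes, 1 point a gene, with the number measured after the list's name. Blue and red points are at least 2-fold higher or lower in H1299, black bars are list medians, the pale band holds the middle 50% of all 12780 genes and the thin lines mark 2-fold. Aldo-keto reductases (median -7.17) and collagens (-2.74) lie at one end and cancer-testis genes (3.15) at the other, while ribosomal proteins (0.09) crowd around 0; with no signal minimum the first 3 of these medians were -1.63, -1.46 and 0.17.

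Signalling kinases linked to STK11 held one very large difference. SIK1, a kinase that STK11 activates, was at 4028 in A549 and 26.6 in H1299, though only 1 of its 2 probe sets above the minimum was past 2-fold. PDE4D, a cAMP phosphodiesterase, differed by -3.08 and PRKAG2, a subunit of AMPK, by 1.78. STK11 itself was at 204 and 213. Of 25 genes, 4 were higher and 3 lower, against 9.14% and 11.3% of all genes. Only 2 of the higher and 2 of the lower genes were so in both pairs.

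In the chromatin complexes examined, 17.4% of SWI/SNF genes and 8.33% of MSL and NSL genes were past 2-fold, against 20.4% of all genes. In the SWI/SNF list, 1 of 23 was higher and 3 were lower: SMARCA4, the ATPase known to be mutated in both lines, was at 196 and 219, and SMARCA2, the other ATPase, at 529 and 193. Among 12 subunits of the MSL and NSL complexes, which hold KAT8, MSL1 alone was past 2-fold, at 1366 and 330, though in 1 of its 3 probe sets above the minimum. KAT8 differed by -0.67 under scramble and -0.57 under hMOF siRNA (adjusted p = 0.00901 in limma).

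Few cell cycle genes were past 2-fold, and more of them were higher than lower in limma, in which 24.9% of all genes were higher and 27.1% lower. Of 31 genes of the G1/S transition, 1 was 2-fold higher and 1 lower, 18 were higher and 2 lower in limma, and the median was 0.33 under scramble and 0.77 under hMOF siRNA. CDT1, which licenses replication origins, was at 358 and 1213, and PCNA, the replication clamp, went the other way at 5200 and 2696. Of 29 genes of G2 and mitosis, 1 was 2-fold higher and 2 were lower, and neither lower gene was so in both pairs. In limma 15 were higher and 2 lower, with medians of 0.35 under scramble and 0.66 under hMOF siRNA. The kinase AURKA of this list was at 1847 and 3468.

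Most genes that every cell uses were close in both lines. By the brightest probe set of each gene, none of 36 cytosolic ribosomal protein genes and none of 34 oxidative phosphorylation genes was past 2-fold, with medians of 0.09 and 0.16 (0.15 and 0.31 under hMOF siRNA). Counting all probe sets above the minimum, RPL37 had 3 of 4 past 2-fold, and RPS21, COX7B and ATP5F1A had 1 of 2. In limma 5 ribosomal protein genes passed, all of them higher, and 11 oxidative phosphorylation genes were higher and 5 lower, against 52% of all genes called either way. GAPDH was at 16824 and 18931. Of 27 proteasome subunits PSMB7 differed by 1.23 and PSMD11 by -1.03. In cholesterol and fatty acid synthesis 2 of 18 were lower, FADS2, a fatty acid desaturase (-3.42), and ACLY (-1.53), and the list's median was -0.17 under scramble and 0.37 under hMOF siRNA. In serine and one-carbon metabolism CBS and CTH, which make cysteine, were higher by 1.32 and 1.09 and the carrier SLC1A5 differed by -1.02. Of 15 histone genes 3 were higher and 1 lower, of which H2BC4 (24.5 and 186) and MACROH2A2 (897 and 262) were past 2-fold in both pairs. Of 7 mucin and trefoil genes, MUC15 was at 9.68 and 284 and the other members lay within 2-fold.

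Some of the 2606 differing genes lay side by side among the measured genes, and genes not measured can lie between them. Over the 12748 genes placed in the RefSeq gene table, 103 rows of at least 3 neighbouring measured genes were each at least 2-fold the same way, 39 higher and 64 lower in H1299, with 354 genes in all. How many rows the number of differing genes would give by chance was not tested. The longest held 6 genes. RASSF6 with the 5 chemokine genes was one of these, with RASSF6, a RAS-association protein, at 342 and 9.28. A second of 6 ran from BEND4 over ATP8A1, GUF1, GNPDA2 and COX7B2 to GABRA4 and was higher in H1299, with BEND4 at 15.9 and 912.

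Among rows of paralogs, AKR1C1, AKR1C2 and AKR1C3 stood with NET1 and ASB13, both lower, at 1163 and 710 in A549 and at 268 and 263 in H1299. The fibrinogen genes stood with MAP9 (-2.78), and IGFBP1 and IGFBP3, which bind insulin-like growth factors, were at 1852 and 2292 in A549 and at 31.0 and 32.3 in H1299. PON3, PON2, ASB4 and PDK4 formed another lower row, in which PDK4, a brake on pyruvate oxidation, was at 4575 and 41.9. S100A6, S100A4 and S100A3 were one row too. On the higher side, HOXB2, HOXB-AS1, HOXB3, HOXB4 and a probe set named for MIR10A differed by 5.88, 2.42, 1.91, 2.87 and 1.61, and all 5 were past 2-fold under hMOF siRNA. DLX1 and DLX2, homeobox genes, were at 77.1 and 44.1 in A549 and at 320 and 591 in H1299. PASD1, a cancer-testis gene at 18.5 and 832, headed the row of MAGEA4, MAGEA10, MAGEA12 and MAGEA6.

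**Figure D4:**
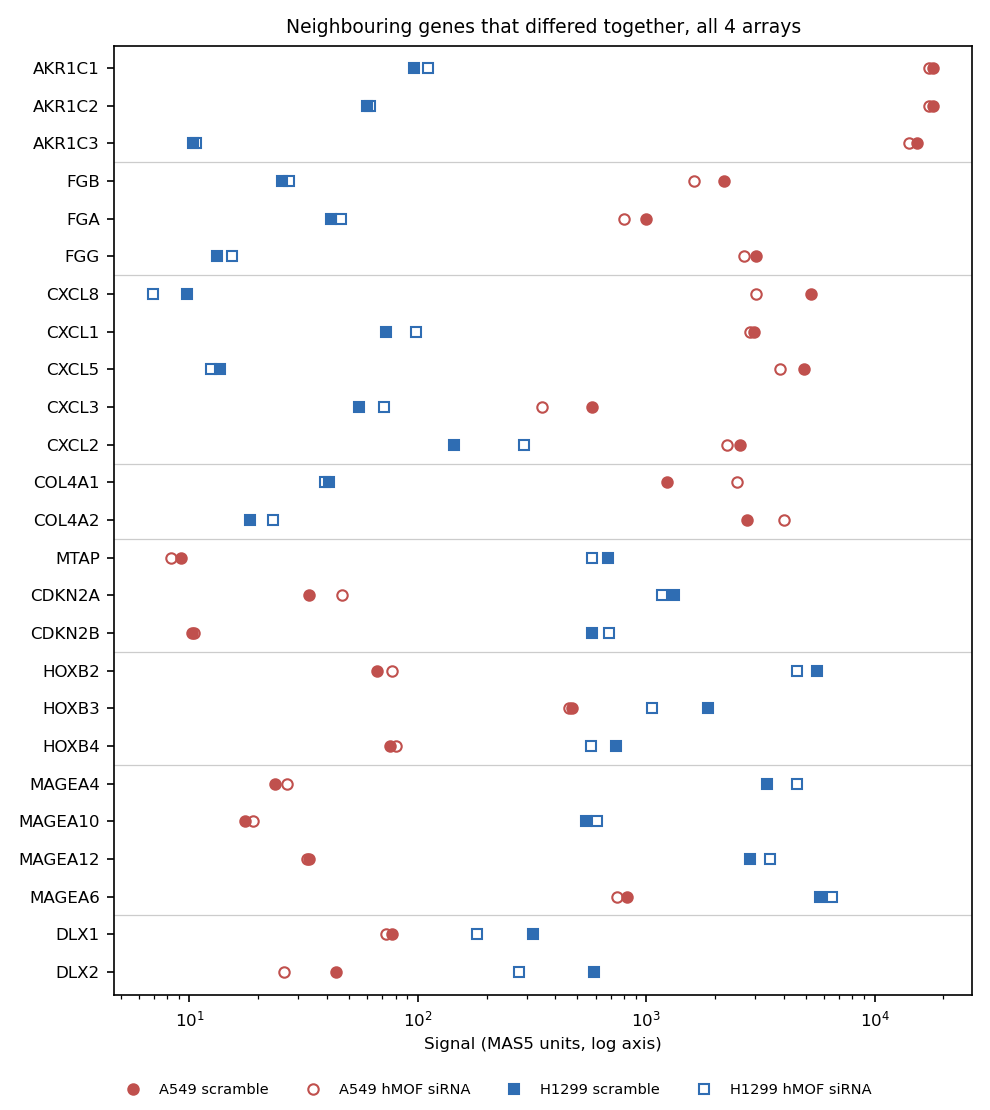
Signals in MAS5 units (x axis, log scale) of genes that lie side by side, with 1 point for each of the 4 arrays: circles for A549, squares for H1299, filled for scramble, open for hMOF siRNA. Lines separate the groups of neighbours. In each group the A549 points lie to one side of the H1299 points on all 4 arrays, from AKR1C3 at 15314 and 10.4 to DLX2 at 44.1 and 591 under scramble siRNA.

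The remaining genes with very high ratios belong to no list. MEF2C, a transcription factor of muscle and neurons, was at 16.8 in A549 and 1800 in H1299 under scramble siRNA and at 16.3 and 991 under hMOF siRNA, in all 3 of its probe sets. SATB1, a genome organiser, was at 13.4 and 1168, and BEX1 and PLAC8 were at 31.3 and 38.6 in A549 and at 2374 and 2478 in H1299. STMN3, a tubulin-binding protein, DSCR8 and PLBD1 differed by 5.18, 4.83 and 4.76. On the lower side KYNU, an enzyme of tryptophan breakdown, was at 7598 and 5.72, CD24, a surface glycoprotein, at 11114 and 36.5, and CYP24A1, which inactivates vitamin D, at 5704 and 18.6. UBE2E1, a ubiquitin-conjugating enzyme, and TCIM differed by -6.95 and -6.89. Over the 15 highest and 15 lowest ratios, adjusted p in limma ranged from 5.70e-05 to 0.00184. These genes were picked by their ratios on the same arrays that limma fits, so the p-values are no separate support.

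Some genes stood apart in the scramble pair alone, and only the extremes are named here. These are the 5 highest and 5 lowest scramble ratios among genes under 1.5-fold in the hMOF siRNA pair. The 2 genes past 2-fold in opposite ways are named as well. Over all 12780 genes the log2 ratios of both pairs had a Pearson r of 0.956 and a Spearman rho of 0.906 across genes, which are not independent replicates, and they differed with an SD of 0.34. LDAF1, a lipid droplet protein, and TTLL6 were the only genes at least 2-fold in opposite ways. SLC13A1, a sulfate transporter, was at 347 in the H1299 scramble array and at 2.79, 5.88 and 6.68 in the other 3. USP42 had 783 in the same array and 36.7 to 39.6 in the others, while its other probe sets above the minimum differed by -0.66 and -0.57. LOC101928697, LINC00221 and ZBTB25 were likewise high in that array, with differences of 2.86, 2.71 and 2.61 under scramble and of -0.15, 0.01 and 0.51 under hMOF siRNA. TAS2R40, IFIT1, PGGHG, SETD7 and C1GALT1C1L had the lowest scramble ratios among genes under 1.5-fold in the hMOF siRNA pair, from -1.75 to -1.43. With 1 array for each line and siRNA, these values carry no error.

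**Figure D5:**
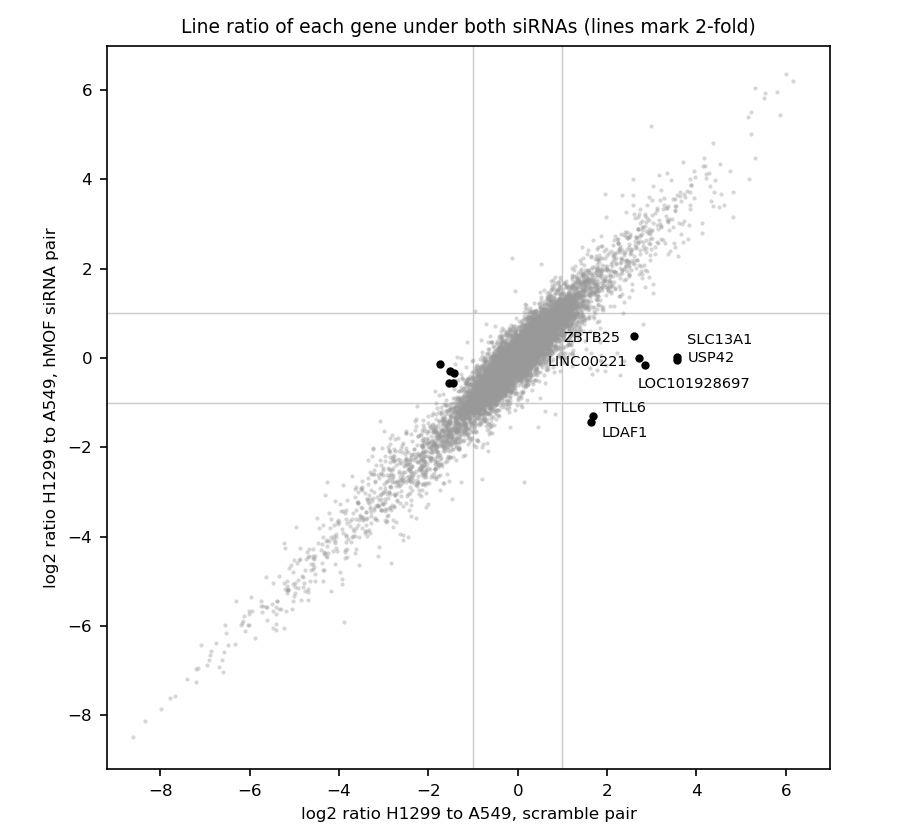
Log2 ratio of H1299 to A549 for each of the 12780 genes in the scramble pair (x axis) and in the hMOF siRNA pair (y axis), with lines at 2-fold. Most genes lie along the diagonal (Pearson r 0.956). Black points mark 12 genes picked by rule, among them LDAF1 at 1.65 and -1.43. They are the 5 highest and 5 lowest scramble ratios among genes under 1.5-fold in the hMOF siRNA pair, and the 2 genes past 2-fold in opposite ways. Other genes that differed in the scramble pair alone are not marked.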

How the data were processed

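Total RNA of A549 and H1299 cells was labelled with biotin and read on 4 Affymetrix arrays with 54675 probe sets. The authors deposited linear signal intensities per probe set, made with MAS5 per the submitters' processing notes; their scaling and background settings are not stated in those notes. Per the labels, source names give the groups, although the treatment tag of 2 arrays gives the opposite siRNA.

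Control probe sets (62) were left out. Of the rest, 41091 name 1 gene, 1801 several and 11721 none in the platform annotation given, and only the first were used. Gene IDs of 54 of them were absent from the RefSeq table. The filter was a mean of 77.3 over the scramble arrays (50th percentile of the probe sets left). Ratios were taken on log2(signal + 29.06), computed here from the deposited intensities. limma 3.58.1 (R 4.3.3) fitted line with siRNA as a block, with 1 residual and 3.63 prior degrees of freedom and Benjamini-Hochberg adjustment over 12780 genes; the threshold was 0.05. Tested on simulated data of 12780 genes with 200 changed, 20 runs recovered 65.05% of 2-fold and 97.95% of 4-fold changes, and 6.47% of calls were false. The simulated noise was drawn from the variance limma had fitted, independently for each array. In the data 52% of all genes were called, so the simulated rates do not carry over to these calls. The number of arrays limits the precision.

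Named were the 15 highest and 15 lowest ratios found in both pairs, up to 10 on or off genes each way, up to 8 genes past 2-fold each way per list, genes that define the lines, KAT8, rows of neighbours and genes of 1 pair alone; members within 2-fold were added as contrast after their values were seen. Members, lists and rules were chosen with earlier results of these data known. Alternatives were the offset, filter, scaling, probe set rule, 4-fold, the hMOF siRNA pair and no siRNA block. Promoter sequences are RefSeq GRCh38.p14. Python 3.11.15 with pandas 2.3.3 was used.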

Additional observations from a re-analysis of the deposited data

Results flagged for a closer look

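LDAF1 and TTLL6 differed between the lines in opposite ways under the 2 siRNAs. LDAF1 had signals of 292 in A549 and 978 in H1299 under scramble siRNA and of 270 and 82.1 under hMOF siRNA, log2 differences of 1.65 and -1.43. TTLL6 had 145 and 527 under scramble siRNA and 91.3 and 19.9 under hMOF siRNA, differences of 1.68 and -1.30. In both genes the H1299 arrays differed more from each other than the A549 arrays did. The difference between the pairs was not tested, since each pair has 1 array a side.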

How the results depend on the processing

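The counts of genes past 2-fold, of genes past 2-fold in both pairs and of limma calls stayed within 1.5 times of those reported under every change of offset, filter, scaling and probe set rule tried, and with the hMOF siRNA pair in place of the scramble pair. Raising the size to 4-fold left 322 higher and 600 lower genes, as fewer genes reach it. Without the siRNA block limma called 2002 genes higher and 2284 lower. Of the genes named by rule, 1 call was lost, CTAG2 without probe sets marked as able to cross-hybridise (0.22, adjusted p = 0.418), 12 values gained the call and 418 kept their side of it, over all alternatives, and no call reversed. The share of lower genes among those past 2-fold was 55.2%, and 51.1% after quantile normalization; in limma the side with more calls turned after quantile normalization (3499 higher, 3317 lower) and with arrays centred on their medians (3338 and 3303). Of the list medians under alternatives, 238 moved by less than their spread and 144 by more. The spread of a list is the SD of its medians in the scramble and hMOF siRNA pairs. Swapping in the hMOF siRNA pair therefore always counts as a move by more than the spread, and these cases are among the 144. The labels give no replicate numbers, and the limma fit pairs the lines within each siRNA. Leaving out 1 array leaves 1 pair and no residual degree of freedom for limma; the hMOF siRNA pair alone gave 1228 higher and 1528 lower genes. Low signal limits the genes near or under the offset of 29.06, whose ratios have no exact size.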

Other observations

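Zinc finger genes were counted after their values were seen. Of 302 genes named ZNF that were measured, 41 (13.6%) were at least 2-fold higher in H1299 and 18 (5.96%) were lower, against 9.14% and 11.3% of all genes, and 36 and 14 of them were so in both pairs. Their median log2 ratio was -0.02. Some lay side by side: ZNF44, ZNF443 and ZNF709 were higher by 1.22, 1.46 and 2.61, with ZNF709 at 9.74 in A549 and 208 in H1299. These genes are alike in sequence and some probe sets may share signal.

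Of 4 DLX homeobox genes measured, 3 were at least 2-fold higher in H1299, each in both pairs. EHF, a transcription factor of epithelial cells, was at 1225 in A549 and 4.85 in H1299 under scramble siRNA and at 668 and 7.45 under hMOF siRNA, in a row of lower neighbours with ABTB2 and CAT, the gene of catalase, which differed by -1.16 and -1.52.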
